A study of Homo sapiens with 9 samples.

Results

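Formate, the simplest carboxylic acid anion, is released in human cells by folate enzymes and by several reactions that need no folate. The genes described here encode 8 enzymes of routes of the second kind, though not each of them releases formate itself. ADH5, ESD and ALDH2 serve the oxidation of formaldehyde, and PHYH and HACL1 serve peroxisomal alpha-oxidation. ADI1 serves methionine salvage, PDF the removal of formyl groups from mitochondrial proteins, and AFMID the breakdown of tryptophan. The genes were chosen by symbol from these pathways, and all 8 were found among the 23727 genes of the count table. RNA sequencing was done on LN229, an established human glioblastoma cell line, in 9 libraries of 3 groups. The untreated group was taken at 0 h, and the other groups had received 500 µM sodium formate for 8 h or for 24 h. The medium of every group held 17 mM glucose and 2 mM glutamine, with serum at 10%. Each group held 3 libraries, and the labels do not say whether these came from separate cultures, so the p-values measure the spread between these libraries, which may be technical. No untreated library at 8 h or 24 h was analysed, so formate and time in culture cannot be told apart.

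Formaldehyde arises in cells from demethylation reactions and is toxic. In the cytosol it joins glutathione, ADH5 oxidises the adduct to S-formylglutathione, and ESD hydrolyses this to formate and glutathione. ALDH2, in mitochondria, is best known for acetaldehyde and also oxidises formaldehyde. In peroxisomes PHYH hydroxylates phytanoyl-CoA and other acyl-CoAs, and HACL1 cleaves the product to an aldehyde and formyl-CoA, which yields formate. ADI1 opens an intermediate of methionine salvage, the route that rebuilds methionine after polyamine synthesis, with release of formate. PDF removes the formyl group that starts mitochondrial proteins, and AFMID splits N-formylkynurenine into kynurenine and formate.

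Total counts per library ran from 22222298 to 25848242, and 3 counts in a library corresponded to 0.116 to 0.141 CPM (counts relative to library size, with TMM scaling factors). Glioma and neural genes marked the cells as labelled: VIM lay between 3199 and 6284 CPM, NES between 887 and 1011, and SOX2 between 67.2 and 103. GFAP, the astrocyte filament gene, was near the floor, with 3 to 10 counts per library. The leukocyte, endothelial and epithelial markers PTPRC, PECAM1 and EPCAM had at most 3 counts in any library. MBP, a marker of oligodendrocytes, had 2 to 19 counts per library, at most 0.788 CPM. The neuron marker RBFOX3 was not analysed here. These are bulk samples, in which fewer cells expressing a gene and less RNA per cell cannot be told apart.

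Start regions are shown for 3 of the genes: ADH5 and ESD, which act one after the other, and AFMID, which starts head to head with another gene. The RefSeq table (GRCh38.p14) held a start region for 7 of the 8 genes, and ALDH2 had no entry. Only the bases before the start that lie outside every exon of GENCODE 29 are printed, 5′ to 3′ on the strand of the gene. Capitals mark a GC box, the letters GGGCGG on either strand, to which Sp factors are known to bind.
ADH5 (chr4:99088802-99088856, minus strand): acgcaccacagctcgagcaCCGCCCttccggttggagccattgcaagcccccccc
ESD (chr13:46797233-46797411, minus strand): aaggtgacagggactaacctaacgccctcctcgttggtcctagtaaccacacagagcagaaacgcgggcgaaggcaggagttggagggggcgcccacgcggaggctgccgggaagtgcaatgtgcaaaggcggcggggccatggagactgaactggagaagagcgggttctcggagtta
AFMID (chr17:78187234-78187316, plus strand): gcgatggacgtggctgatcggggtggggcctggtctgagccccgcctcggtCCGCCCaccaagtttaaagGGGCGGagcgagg

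The stretch of ADH5 is 55 bases long and holds 1 GC box, that of ESD is 179 bases long and holds 0, and that of AFMID is 83 bases long and holds 2. At the same place and length, 21.9%, 30.8% and 25.0% of the 27305 genes with a RefSeq start region hold at least 1 GC box. The 2 GC boxes of AFMID do not overlap. None of these stretches holds a CCAAT box (CCAAT) or a TATA box (TATAAA) on either strand, and 11.1%, 24.6% and 17.4% of all start regions hold a CCAAT box there. CpG dinucleotides number 4, 13 and 8 in the stretches of ADH5, ESD and AFMID, and their GC content is 69.1%, 61.5% and 69.9%. A match of letters is a description of the sequence and not evidence of binding.

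The enzymes of the cytosolic formaldehyde route and of methionine salvage were the most abundant transcripts of the 8, and mitochondrial ALDH2 was the lowest. Levels between genes are compared as RPKM, the CPM per kilobase of the summed exons in GENCODE. At 0 h, ADH5 stood at 29.6 ± 3.36 RPKM (SD, n = 3), ESD at 27.7 ± 3.59 and ADI1 at 22.9 ± 1.57. HACL1 stood at 8.47 ± 0.963, AFMID at 3.76 ± 0.329 and PHYH at 3.24 ± 0.405. PDF stood at 1.24 ± 0.324 and ALDH2 at 0.0537 ± 0.0171. The libraries of neighbours in this order did not overlap, except for ADH5 with ESD and for AFMID with PHYH, whose ranges overlapped at 0 h. Within untreated libraries 1, 2 and 3, the ratio of ADH5 to ESD was 1.04, 1.09 and 1.07. AFMID was above PHYH in untreated replicates 1 and 3 and below it in replicate 2 (3.54 against 3.60 RPKM). The order of the 8 genes was the same in all 3 groups. With the length of the longest transcript in place of the summed exons, AFMID (10.7 ± 0.198 RPKM) stood above HACL1 (9.42 ± 1.10) at 24 h and their libraries overlapped, and at 0 h ADH5 and ESD did not overlap (55.04 and 39.2 RPKM).

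**Figure D1:**
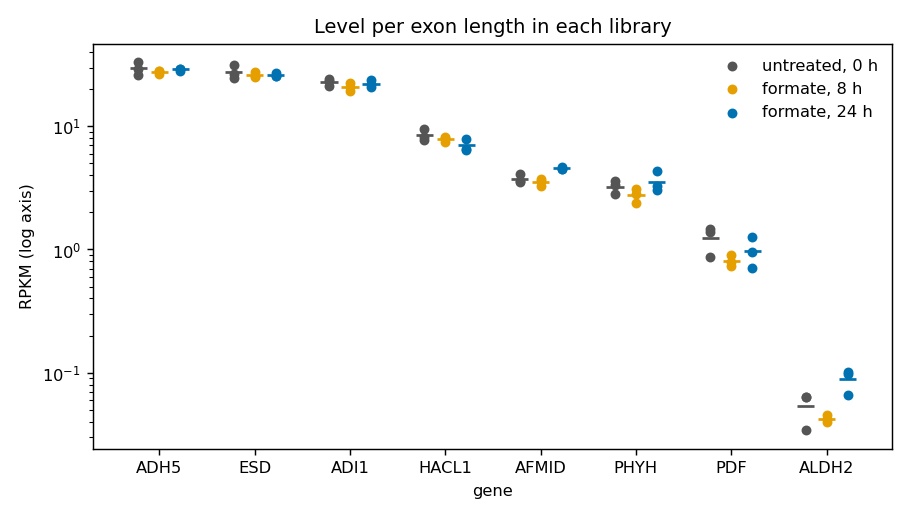
Level of each of the 8 genes in each of the 9 libraries, in RPKM on a log axis, with genes ordered by their mean over the libraries. Points are libraries, short bars are means of 3 libraries, and colours are the groups. ALDH2 lies between 0.0340 and 0.102 RPKM and ADH5 between 26.3 and 33.1.

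ADH5, ESD and ADI1 took between 85.9% and 87.5% of the counts of the 8 genes in each library. The ratio of ADH5 to ESD in RPKM ran from 1.01 to 1.16 over the 9 libraries, and from 1.33 to 1.53 with the longest transcripts. The RPKM of ADH5 was between 288 and 974 times that of ALDH2.

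ADH5 (ENSG00000197894, chromosome 4, 99070978 to 99088801, minus strand) is the class III alcohol dehydrogenase, which also reduces S-nitrosoglutathione. It was measured at 161, 143 and 128 CPM in untreated replicates 1, 2 and 3, at 138, 137 and 130 CPM after 8 h, and at 142, 143 and 138 CPM after 24 h of formate. The groups overlapped, and the untreated libraries spread more widely than either formate group. Relative to 0 h the log2 fold change was -0.09 at 8 h (95% interval -0.31 to 0.12) and -0.03 at 24 h (-0.25 to 0.19), with adjusted p-values of 0.9999 and 0.875 by edgeR's quasi-likelihood test. Of 3 annotated pseudogene copies of ADH5, ADH5P4 had 0 to 3 counts per library, and the other copies were not analysed here.

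ESD (ENSG00000139684, chromosome 13, 46771256 to 46797232, minus strand) is the S-formylglutathione hydrolase that follows ADH5. It was measured at 108, 91.3 and 84.0 CPM at 0 h, 84.9, 94.5 and 86.8 CPM at 8 h, and 92.2, 86.4 and 87.2 CPM at 24 h. Untreated replicate 1 was the highest library for ESD, and the groups overlapped. For ESD the log2 fold change was -0.09 at 8 h (95% interval -0.32 to 0.14) and -0.09 at 24 h (-0.32 to 0.14), with adjusted p-values of 0.9999 and 0.595. Pearson's r between ADH5 and ESD was 0.83 on log2 CPM over the 9 libraries, which share their depth and scaling factors. It was the highest among the 28 pairs of the 8 genes. The largest in size was that of ALDH2 with HACL1, at -0.84. ESD also had an r of 0.77 with ADI1 and of 0.74 with HACL1.

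ALDH2 (ENSG00000111275, chromosome 12, 111766887 to 111817529, plus strand) had 7, 16 and 14 counts in the untreated libraries, 9, 10 and 9 at 8 h, and 15, 23 and 23 at 24 h. In CPM these are 0.330, 0.616 and 0.619 at 0 h, 0.409, 0.437 and 0.383 at 8 h, and 0.634, 0.992 and 0.953 at 24 h. The libraries of 24 h lay above those of both other groups, by a narrow margin for replicate 1 of 24 h over untreated replicate 3. The log2 fold change at 24 h against 0 h was 0.70 (95% interval 0.0016 to 1.40, adjusted p = 0.189 by edgeR's quasi-likelihood test), which did not pass, and with the replicate number as a block it did not pass either (adjusted p = 0.0859). Without untreated replicate 1, the lowest library for ALDH2, the value was 0.46 (adjusted p = 0.488). At 24 h against 8 h the log2 fold change was 1.06 (0.33 to 1.79, adjusted p = 0.0894, and 0.0279 with the block). Replicate number 2 showed no pairing between these groups. With so few counts the standard error of the change at 24 h against 8 h was 0.33 for ALDH2, against 0.099 for ADH5, on the log2 scale.

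Of the 4 other aldehyde dehydrogenases in the same pathway list, 3 were present at higher levels than ALDH2 in every library. ALDH9A1 lay between 25.0 and 32.1 RPKM over the 9 libraries, ALDH1B1, a mitochondrial relative of ALDH2, between 9.29 and 14.2, and ALDH3A2, which oxidises fatty aldehydes, between 8.79 and 10.1. The fourth, ALDH1A1, had 0 to 9 counts per library. Its mean was below that of ALDH2 at 0 h (0.0325 against 0.0537 RPKM) and at 8 h (0.0207 against 0.0421). At 24 h it was 0.114 ± 0.0359 RPKM (SD), against 0.0885 ± 0.0202 for ALDH2, at low counts in both.

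PHYH (ENSG00000107537, chromosome 10, 13277796 to 13302412, minus strand), the hydroxylase lost in Refsum disease, begins alpha-oxidation. It was measured at 11.2, 12.2 and 9.47 CPM at 0 h, at 8.13, 10.5 and 9.49 CPM at 8 h, and at 10.3, 11.0 and 14.6 CPM at 24 h. The groups overlapped, and replicate 3 of 24 h stood above the other 8 libraries. The log2 fold change at 24 h against 0 h was 0.13 (95% interval -0.23 to 0.50, adjusted p = 0.631), and without replicate 3 of 24 h it was -0.04.

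HACL1 (ENSG00000131373, chromosome 3, 15560704 to 15601852, minus strand), the lyase that follows PHYH, was the only member of the group with an unadjusted p under 0.05 and a lower level at 24 h than at 0 h. It stood at 29.2, 24.9 and 23.5 CPM at 0 h, at 22.7, 24.8 and 25.1 CPM at 8 h, and at 24.2, 19.8 and 20.02 CPM at 24 h. Replicates 2 and 3 of 24 h were below all other libraries, and replicate 1 of 24 h lay within the range of the untreated group. The log2 fold change at 24 h against 0 h was -0.28 (95% interval -0.54 to -0.01, unadjusted p = 0.0413, adjusted p = 0.173). All 3 same-numbered pairs were lower at 24 h, by -0.27, -0.33 and -0.23 on the log2 scale, and with the replicate block the adjusted p was 0.0786. BTD, on the opposite strand, overlaps 15.4% of the exons of HACL1 and was itself measured at 24.0 to 33.7 CPM. Whether the counting used strand is not given in the sources used here, so reads of the overlapping part cannot be told apart.

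ADI1 (ENSG00000182551, chromosome 2, 3497361 to 3519736, minus strand), acireductone dioxygenase, was measured at 134, 130 and 117 CPM at 0 h, at 108, 125 and 115 CPM at 8 h, and at 131, 122 and 116 CPM at 24 h. The 3 groups overlapped. For ADI1 the log2 fold change was -0.13 at 8 h (95% interval -0.34 to 0.08) and -0.04 at 24 h (-0.26 to 0.17), with adjusted p-values of 0.9999 and 0.796. Genes on the opposite strand overlap 7.86% of the exons of ADI1. Of these, AC231981.1 had 5 to 17 counts per library against at least 2385 for ADI1. The annotation also holds 3 pseudogene copies of ADI1, which were not analysed here, and its counts are uncertain to that extent.

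PDF (ENSG00000258429, chromosome 16, 69328621 to 69330595, minus strand), the mitochondrial peptide deformylase, had 36, 26 and 36 counts at 0 h, 20, 24 and 20 at 8 h, and 26, 19 and 35 at 24 h. In CPM these are 1.70, 1.001 and 1.59 at 0 h, 0.908, 1.05 and 0.851 at 8 h, and 1.10, 0.820 and 1.45 at 24 h. Untreated replicate 2 lay within the range of both formate groups. The log2 fold change at 8 h was -0.60 (95% interval -1.25 to 0.05, adjusted p = 0.9999), the largest in size among the 8 genes in that comparison, and at 24 h it was -0.33 (-0.97 to 0.30, adjusted p = 0.467). The value at 24 h was -0.21 without untreated replicate 1, -0.55 without untreated replicate 2, -0.16 without replicate 2 of 24 h and -0.57 without replicate 3 of 24 h. Exons of other genes on the same strand overlap 48.3% of the exons of PDF. COG8 is among them and was measured at 22.04 to 33.0 CPM. The counts of PDF are uncertain for that reason.

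AFMID (ENSG00000183077, chromosome 17, 78187317 to 78207701, plus strand), arylformamidase, had the smallest p-value of the 8 genes both at 24 h against 0 h and at 24 h against 8 h. It stood at 16.7, 14.3 and 14.6 CPM at 0 h, at 15.1, 14.7 and 13.4 CPM at 8 h, and at 18.1, 18.4 and 18.8 CPM at 24 h. The 3 libraries of 24 h were above all 6 others and close to each other. The log2 fold change at 24 h against 0 h was 0.28, a ratio of 1.21 (95% interval 1.03 to 1.43, unadjusted p = 0.0258), and it did not pass adjustment over all genes (adjusted p = 0.142 by edgeR's quasi-likelihood test). All 3 same-numbered pairs were higher at 24 h, by 0.12, 0.36 and 0.37 on the log2 scale, and with the replicate block the adjusted p was 0.0576. At 24 h against 8 h the log2 fold change was 0.36 (95% interval 0.12 to 0.60, adjusted p = 0.0814, and 0.0248 with the block). Replicate number 2 showed no pairing between those 2 groups.

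The start of AFMID lies 83 bases from that of TK1, the thymidine kinase gene of S phase, which is transcribed the other way, and the sequence printed for AFMID is this interval. TK1 was chosen for its position. TK1 was measured at 346 ± 82.0 CPM at 0 h, 331 ± 39.9 CPM at 8 h and 279 ± 48.2 CPM at 24 h. Its log2 fold change at 24 h against 0 h was -0.31 (adjusted p = 0.280 by edgeR's quasi-likelihood test, and 0.0364 with the replicate block), of opposite sign to that of AFMID. Whether these values are related was not tested.

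**Figure D2:**
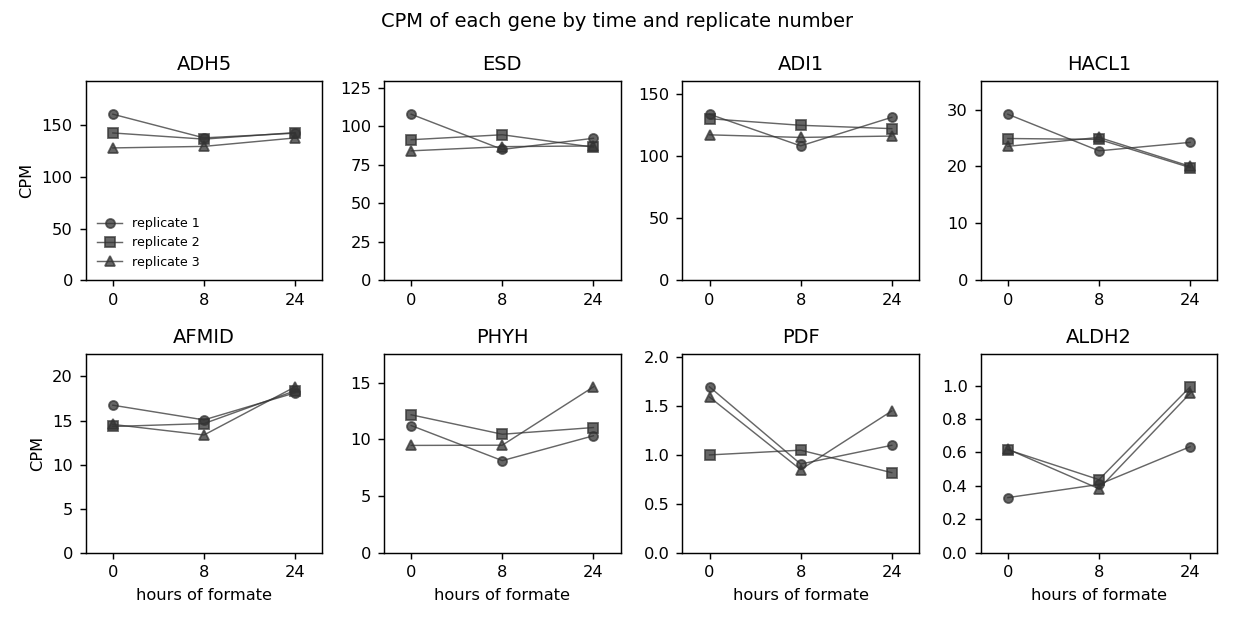
CPM of each of the 8 genes (vertical axis from 0, a scale for each gene) against the hours of formate, which are spaced evenly and not to scale. Symbols are the replicate numbers and lines join libraries of the same number. AFMID and ALDH2 have all 3 libraries of 24 h above the other 6, while the 3 groups overlap for ADH5, ESD and ADI1.

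The first comparison asked whether any of the 8 transcripts had changed after 8 h of formate. None of the 8 passed by edgeR's quasi-likelihood test with adjustment over all 15273 tested genes, none had an unadjusted p under 0.05, and DESeq2 also called 0. The groups overlapped for all 8 genes, and for 3.31% of all tested genes they did not. Over all genes 0% passed, 0.517% had an unadjusted p under 0.05 and DESeq2 called 0. The fitted log2 fold changes of all 8 were below 0, from -0.60 for PDF to -0.08 for AFMID, with a median of -0.11 against -0.02 over all tested genes. Untreated replicate 1 was the highest of the 9 libraries for ADH5, ESD, ADI1, HACL1 and PDF and had the lowest scaling factor (0.920). Without it the value at 8 h was nearer 0 for 7 of the genes, among them ADH5 (-0.010), ESD (0.014), HACL1 (-0.0047), AFMID (-0.011) and PDF (-0.46), and farther from 0 for ALDH2 (-0.59 in place of -0.36).

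The second comparison, of 24 h with 0 h, gave no call among the 8 genes either. An unadjusted p under 0.05 was found for 3 of them (AFMID and ALDH2 higher, HACL1 lower), against 26.4% of all tested genes. DESeq2 called 0 of the 8 and 10.9% of all genes to which it gave an adjusted p. Of the 15273 genes, 4.25% passed the threshold, and 24.1% did with the replicate block, under which the 8 again gave 0 calls. The groups did not overlap for 2 of the 8 genes, AFMID and ALDH2, against 30.3% of all genes. The median size of the change was 0.20 on the log2 scale for the 8 genes and 0.23 for all genes. For ADH5, ESD and ADI1 the 95% intervals of the ratio of 24 h to 0 h ran from 0.844 to 1.14, from 0.801 to 1.10 and from 0.837 to 1.12.

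**Figure D3:**
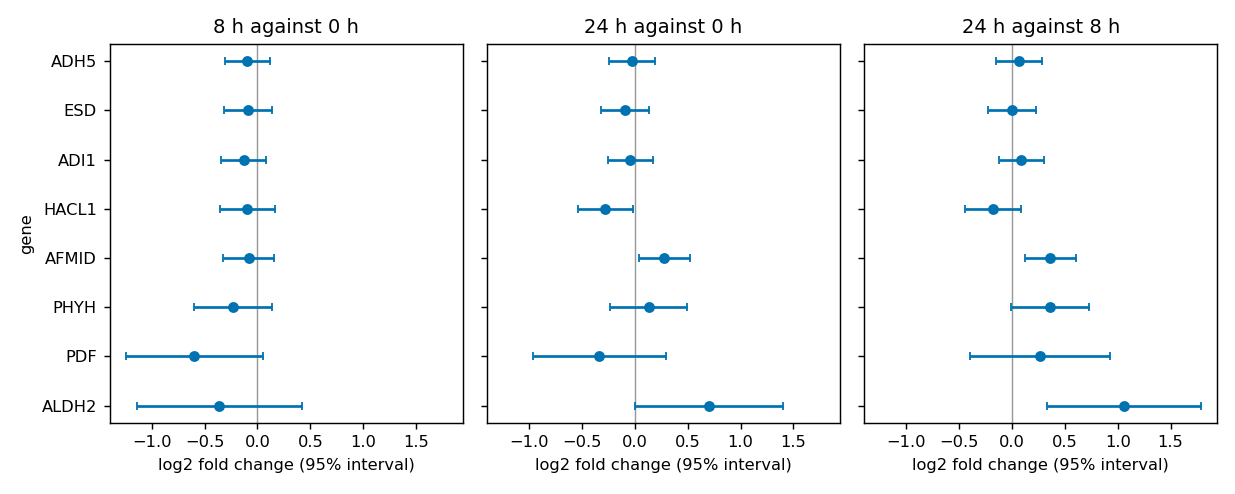
Fitted log2 fold change of each of the 8 genes in the 3 comparisons (points), with 95% intervals from edgeR's quasi-likelihood fit without a replicate block (bars). At 8 h every interval includes 0, and the intervals of ALDH2 and PDF are the widest.

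The comparison between the formate groups tests whether the differences from the shared untreated libraries at the 2 times were unequal. It again called 0 of the 8 genes by edgeR's quasi-likelihood test, against 4.56% of all genes. The groups did not overlap for 2 of the 8, against 34.3% of all genes, and the same 2 had an unadjusted p under 0.05, AFMID (0.00675) and ALDH2 (0.00835), against 22.8% of all genes. DESeq2 called 0 of the 8 and 9.4% of all genes. With the replicate block AFMID (adjusted p = 0.0248) and ALDH2 (0.0279) passed, and 20.5% of all genes did. Replicate number 2, however, showed no pairing between 8 h and 24 h. Without untreated replicate 1, which enters this comparison only through the shared fit, AFMID (adjusted p = 0.0288) and ALDH2 (0.0432) passed, along with 16.3% of all genes. AFMID also passed when only the libraries of 8 h and 24 h were fitted (0.0469), as did 11.9% of all genes.

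The genes whose log2 CPM followed the pattern of AFMID, HACL1 and ALDH2 most closely were found among 10839 tested genes of at least 5 CPM on average. For AFMID these were TRNP1 (Pearson's r = 0.99 over 9 libraries), SLC46A1 (0.95) and PITPNC1 (0.95). For HACL1 they were ALG14 (0.97), CENPW (0.96) and COQ2 (0.96), and for ALDH2 they were ST6GAL1 (0.98), PARP14 (0.97) and CPED1 (0.97). Each is the top of a search over all these genes and is given as a description.

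The genes around these enzymes were read from 8 pathway lists with 74 other genes, of which 63 were tested. At 24 h against 0 h, 4 of the 63 passed by edgeR's quasi-likelihood test, against 4.25% of all genes: SARDH was higher, and ILVBL, SMS and ODC1 were lower. With the replicate block 18 passed, 9 higher and 9 lower, against 24.1% of all genes. The median log2 fold change of the 63 was 0.01, and over all genes it was 0.01. Leaving out 1 library changed this count: it was 0 when replicate 3 of 8 h or replicate 2 or 3 of 24 h was dropped, 1 when replicate 2 of 8 h was, and 2 when untreated replicate 1 was. The shares of all genes called in those fits were 1.82%, 0%, 0%, 2.85% and 2.28%. At 8 h none of the 63 passed, none had an unadjusted p under 0.05 and DESeq2 called 0.

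**Figure D4:**
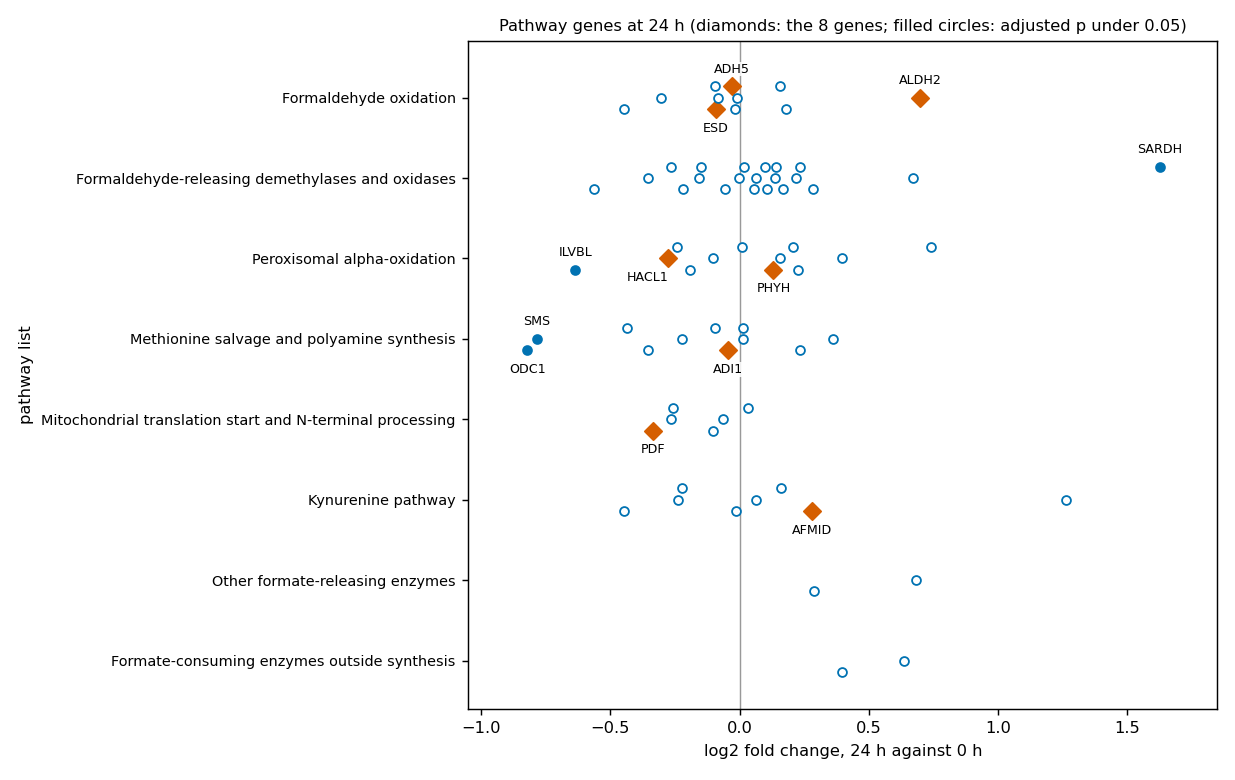
Fitted log2 fold change at 24 h against 0 h of the tested genes of each of the 8 pathway lists, 1 list a row, with points spread vertically only to keep them apart. Diamonds are the 8 genes described here, filled circles are other genes with an adjusted p under 0.05 and open circles are the rest. The 4 filled circles are SARDH, ILVBL, SMS and ODC1.

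In the list of methionine salvage and polyamine synthesis, the pathway of ADI1, 10 other genes were tested. At 24 h against 0 h 2 of them passed, against 4.25% of all genes. Both were lower, and both are enzymes of polyamine synthesis. With the replicate block 6 passed, 2 higher and 4 lower, against 24.1% of all genes. ODC1, which makes putrescine and so begins polyamine synthesis, fell from 213 ± 60.7 CPM at 0 h to 120 ± 19.9 CPM at 24 h (SD, n = 3 each). Its log2 fold change was -0.82 ± 0.19 (standard error) and its adjusted p was 0.0352. SMS, spermine synthase, fell from 193 ± 46.8 to 112 ± 22.5 CPM, a log2 fold change of -0.79 ± 0.18 with an adjusted p of 0.0352. In both genes the highest library was untreated replicate 1, and the 3 libraries of 24 h lay below all the others. Other enzymes of polyamine synthesis did not pass without the block. AMD1, which makes the aminopropyl donor, had a log2 fold change of the opposite sign, 0.23 (adjusted p = 0.208, and 0.0473 with the block), and was higher in all 3 pairs. SRM, spermidine synthase, had a log2 fold change of -0.44 (adjusted p = 0.243, and 0.0367 with the block). Among the enzymes of salvage itself, GOT1, an aminotransferase, had one of -0.35 (adjusted p = 0.0573, and 0.0161 with the block). The other salvage enzymes did not pass without the block either: MTAP, which starts salvage, had a log2 fold change of 0.36 (adjusted p = 0.0814, and 0.00498 with the replicate block), while ENOPH1, APIP and MRI1 passed neither with the block nor without it.

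In the alpha-oxidation list 1 of 10 other tested genes passed, lower at 24 h, against 4.25% of all genes. ILVBL, a lyase of 2-hydroxy acyl-CoAs in the endoplasmic reticulum related to HACL1, fell from 74.8 ± 15.6 CPM at 0 h to 48.1 ± 5.63 CPM at 24 h. Its log2 fold change was -0.64 ± 0.15 and its adjusted p was 0.0378. The change of ILVBL was thus of the same sign as that of HACL1, which did not pass. AMACR, the racemase that acts on branched-chain acyl-CoAs, had a log2 fold change of 0.74 (adjusted p = 0.0514, and 0.00964 with the replicate block), and 64.8% of its exons overlap another gene on the same strand. PEX7, the receptor that brings PHYH into peroxisomes, lay between 4.24 and 6.04 CPM in all libraries, and SLC27A2, an acyl-CoA synthetase for phytanic acid, had 0 counts in every library.

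Of the formaldehyde-releasing demethylases and oxidases, 1 of 21 tested genes passed, higher at 24 h, against 4.25% of all genes. SARDH, the mitochondrial sarcosine dehydrogenase, had 3, 6 and 7 counts at 0 h, 3, 9 and 5 at 8 h, and 17, 16 and 18 at 24 h. Its log2 fold change was 1.63 ± 0.40 and its adjusted p was 0.0442. The 3 libraries of 24 h stood above all others, at low counts throughout. With the replicate block 2 genes of this list passed as higher and 1 as lower, against 24.1% of all genes. Those higher were SARDH (adjusted p = 0.0113 with the block) and KDM1B, at 478 to 1317 counts per library. KDM1B had a log2 fold change of 0.67 (adjusted p = 0.0670, and 0.00180 with the block). ALKBH1 was lower (-0.35, adjusted p = 0.126, and 0.0462 with the block). In the list of formaldehyde oxidation 0 of 8 other genes passed at 24 h against 0 h, against the same 4.25% of all genes. The lowest p there was that of GCLM, a subunit of the enzyme that begins glutathione synthesis, with 86.5 ± 0.562 CPM at 0 h and 63.3 ± 10.5 CPM at 24 h (log2 fold change -0.45, adjusted p = 0.0523, and 0.00991 with the block). GCLC, the other subunit of that enzyme, had a log2 fold change of the opposite sign, 0.16 (adjusted p = 0.292 by edgeR's quasi-likelihood test). At 24 h against 8 h the value of GCLC was 0.084. GSS, glutathione synthetase, had a log2 fold change of -0.02 at 24 h against 0 h.

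The remaining lists had no call at 24 h against 0 h without the block, against 4.25% of all genes. In the kynurenine pathway, where AFMID acts, 7 other genes were tested. The enzyme that makes N-formylkynurenine in liver, TDO2, had 14 to 28 counts per library. KYNU had 9 to 18, KMO 7 to 11 and KYAT1 5 to 19, against at least 314 for AFMID. Other genes of the list lay above AFMID (3.30 to 4.65 RPKM) in level per length. AADAT lay between 9.62 and 12.0 RPKM, KYAT3 between 9.17 and 11.5 and SLC7A5 between 245 and 373. IDO1 and IDO2 were not analysed here. QPRT, which acts late in the route to NAD, had the lowest p of that list (log2 fold change 1.26, adjusted p = 0.0768, and 0.00978 with the block), at 11 to 43 counts per library. MTIF2, a mitochondrial initiation factor, had the lowest p beside PDF (-0.27, adjusted p = 0.113, and 0.0411 with the block). CYP51A1, the lanosterol demethylase that releases a methyl group as formate, had a log2 fold change of 0.68 (adjusted p = 0.0558, and 0.0121 with the block), and 79.4% of its exons overlap another gene on the same strand. The list of enzymes that consume formate outside synthesis had only 2 tested genes, ALDH1L2 and CAT. ALDH1L2, which oxidises formyl-folate in mitochondria, had the lower p without the block (0.64, adjusted p = 0.0600, and 0.0116 with the block). CAT had a log2 fold change of 0.40 (adjusted p = 0.111, and 0.00801 with the block).

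At 24 h against 8 h, 3 of the 63 other genes passed by edgeR's quasi-likelihood test, against 4.56% of all genes: AMACR higher (log2 fold change 0.87, adjusted p = 0.0326), and GCLM (-0.51, 0.0358) and ODC1 (-0.78, 0.0405) lower. In all 3 the libraries of the 2 groups did not overlap. That count was 0 when replicate 1 or 3 of 8 h or replicate 2 or 3 of 24 h was left out, 2 when replicate 2 of 8 h was, 5 when replicate 1 of 24 h was, and 12 when untreated replicate 1 was. Of all genes, 0%, 0.34%, 0%, 0%, 2.38%, 6.72% and 16.3% were called in those fits, against 18.8% of the list genes in the last of them. With the replicate block 13 of the 63 passed, 8 higher and 5 lower, against 20.5% of all genes.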

How the data were processed

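The authors deposited 1 table of raw counts per Ensembl gene for 9 libraries; per the labels' protocols, these were prepared with a strand-specific kit. The submitters' processing notes name bcl2fastq 2.20.0.422, STAR 2.7.4a and the build GRCh38; the counting program, annotation and strand setting are not given in the sources used here. Symbols matched 19733 of 23727 genes, and 23252 were in GENCODE 29, whose exons gave lengths and overlaps. The filter filterByExpr left 15273 genes, TMM scaled the libraries, and edgeR 4.0.16 (R 4.3.3) fitted 1 mean per group over all 9 libraries; glmQLFTest was two-sided, with Benjamini-Hochberg adjustment over all tested genes and a threshold of 0.05. DESeq2 1.42.0 was an alternative. Log2 CPM used a prior count of 2. The script was tested on simulated data.

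The members, the lists and the rules were chosen with earlier results of these data known. Every gene of the 8 is described. From the lists, the genes named by rule were those that passed at 24 h against 0 h or against 8 h and the lowest p of each list. Other genes named for level or fold change were chosen after their values were seen. Among them are AMD1, SRM, GOT1, MTAP, ENOPH1, APIP, MRI1 and CAT, and also GCLC, GSS, KDM1B, ALKBH1, AADAT, KYAT1, KYAT3 and SLC7A5. TK1 and the overlapping genes were chosen for position.

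Same-numbered libraries deviated together from their group means: across genes, r was 0.476, 0.432 and 0.414 between 0 h and 8 h, and 0.367, 0.164 and 0.251 between 0 h and 24 h, for numbers 1, 2 and 3. The titles' numbers were therefore taken to pair these groups. Between 8 h and 24 h r was 0.423, 0.0367 and 0.404, so number 2 showed no pairing there; the block is given beside that comparison because both groups pair with 0 h.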

Additional observations from a re-analysis of the deposited data

Results flagged for a closer look

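For 3 of the 63 other pathway genes (4.76%) the change from 0 h differed between 24 h and 8 h. This was tested by the direct comparison of 24 h with 8 h with edgeR's quasi-likelihood test. The difference on the log2 scale was 0.87 for AMACR, -0.51 for GCLM and -0.78 for ODC1. None of the 8 enzymes passed this test. Of all genes, 4.56% passed. The 3 calls came to 0 to 12 when single libraries were left out, and to 13 with the replicate block.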

How the results depend on the processing

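Leaving out each library in turn gave from 0 to 899 genes called at 24 h against 0 h (2213 to 3816 with the replicate block) and from 0 to 2545 at 24 h against 8 h (1179 to 5432 with the block). Among the 8 enzymes it gave 0 calls at 24 h against 0 h (0 to 1 with the block) and 0 to 2 at 24 h against 8 h, with and without the block. Among the 63 other pathway genes it gave 0 to 4 (9 to 21 with the block) and 0 to 12 (5 to 23 with the block). With all libraries, genes called at 24 h against 0 h were 649, and 3687 with the replicate block, 1594 with DESeq2 and 124 in a fit of only the 2 groups compared; at 24 h against 8 h they were 696, 3130, 1412 and 1787. For the other pathway genes the counts were 4, 18, 11 and 0 at 24 h against 0 h, and 3, 13, 7 and 11 at 24 h against 8 h. At 24 h against 8 h, where number 2 showed no pairing, the block gave 2 calls among the 8, AFMID (adjusted p = 0.0248) and ALDH2 (0.0279), and no scaling beyond the total count and the fit of only the 2 groups gave 1 each, AFMID. At 8 h the block changed no call. Signs near 0 turned: without scaling, ADH5 and ADI1 at 24 h against 0 h were at 0.050 and 0.030 and ESD at 24 h against 8 h at 0.058. Without single libraries, ADH5 at 24 h against 0 h ran from -0.11 to 0.041 (-0.082 to 0.031 with the block), PHYH from -0.043 to 0.23 (-0.078 to 0.26), ESD at 8 h from -0.15 to 0.014 (-0.15 to 0.017) and at 24 h against 8 h from -0.050 to 0.044 (-0.11 to 0.061), ADI1 at 24 h against 8 h from 0.021 to 0.14 (-0.018 to 0.13) and HACL1 at 8 h from -0.14 to -0.0047 (-0.16 to 0.048). With the longest transcript, levels at 0 h were 55.04 RPKM for ADH5, 39.2 for ESD, 32.8 for ADI1, 11.4 for HACL1, 8.79 for AFMID and 5.99 for PHYH. The cause of these shifts was not tested. RLE scaling and no filter on low counts changed no call among the 8. Counts of 7 to 36 per library limit what can be seen for ALDH2 and PDF.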
